A study of Homo sapiens with 8 samples.

Results

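The 8 libraries of the series were set against each other by the level of the long noncoding RNA NMR that each was meant to hold. KYSE70 and KYSE450, 2 established human esophageal squamous cell carcinoma lines at passages 5 to 10, carried either the NMR plasmid PCDNA3.1 construct (library NMR) or its control (CON), both delivered by lipid transfection, or a lentiviral shRNA against NMR (shRNA) or its control (shcon), made in HEK 293T packaging cells. The NMR and shcon libraries form the higher side (4 of 8 libraries) and the CON and shRNA libraries the lower side (4 of 8). Each line and delivery gives 1 pair, so 4 pairs replicate the comparison and no library enters more than 1 pair. The level of NMR itself was not analysed here, so "higher" and "lower" are the intended levels that the labels give. The labels name no clone, no multiplicity of infection and no separate cultures, so the spread between pairs also holds the difference between the lines and between the deliveries, which cannot be told apart from a spread between repeats.

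Long noncoding RNAs are transcripts without a protein product that can act on chromatin, on RNA modification or as binding partners of proteins. Pathways that run in squamous carcinoma cells, and that were followed here as gene lists, are growth factor signaling through the EGF receptor and ERK, the cell cycle, the response to stress through the kinases that phosphorylate eIF2 and the factor ATF4, the antioxidant program of NRF2, and the step from basal to differentiating keratinocyte. The comparison asks which genes follow the intended level, that is, have a difference of higher minus lower with the same sign in all 4 pairs. A different sign pattern of the same 4 differences holds the genes whose manipulated library, NMR or shRNA, lies on the same side of its own control in all 4 pairs.

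The promoters of 3 genes are shown because each gene stands for a pattern described further on: MT2A for the lower side, AREG for the higher side and CHAC1 for the difference between the lines. They are MT2A, a zinc-binding metallothionein, CHAC1, a glutathione-degrading enzyme induced by ATF4, and AREG, which encodes amphiregulin, a ligand of the EGF receptor. Each is the stretch of 250 bases before the RefSeq start on the plus strand of GRCh38.p14, read 5′ to 3′. MT2A lies at chr16:56608334-56608583, CHAC1 at chr15:40953221-40953470 and AREG at chr4:74444886-74445135. Capitals mark the core of the metal response element in MT2A (TGCNCNC), the core of the amino acid response element in CHAC1 (TGATGNAA) and the cyclic AMP response element in AREG (TGACGTCA), searched on both strands.
MT2A: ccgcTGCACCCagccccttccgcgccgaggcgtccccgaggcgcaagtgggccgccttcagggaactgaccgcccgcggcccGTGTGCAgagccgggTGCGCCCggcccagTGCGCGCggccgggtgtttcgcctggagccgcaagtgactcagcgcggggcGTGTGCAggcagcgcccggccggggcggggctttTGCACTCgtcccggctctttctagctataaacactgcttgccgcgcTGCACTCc
CHAC1: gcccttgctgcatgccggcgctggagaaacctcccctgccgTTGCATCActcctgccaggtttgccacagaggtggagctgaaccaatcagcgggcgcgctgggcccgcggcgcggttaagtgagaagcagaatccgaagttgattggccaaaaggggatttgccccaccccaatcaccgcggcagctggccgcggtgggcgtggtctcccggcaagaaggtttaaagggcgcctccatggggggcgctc
AREG: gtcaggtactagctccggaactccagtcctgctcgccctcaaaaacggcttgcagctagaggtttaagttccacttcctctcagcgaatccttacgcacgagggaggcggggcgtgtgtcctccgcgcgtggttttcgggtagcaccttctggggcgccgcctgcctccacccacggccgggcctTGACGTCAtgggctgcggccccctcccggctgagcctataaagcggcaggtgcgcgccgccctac
MT2A holds 7 matches to its motif, and 0.0854% of 35116 RefSeq promoters of the same length hold 7 or more, while 49.1% hold at least 1. CHAC1 holds 1 match, as 3.14% of the promoters do, and AREG holds 1 match, as 1.65% do. A match is a description of the letters only.

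The libraries were those of squamous cells: KRT5, a keratin of basal squamous cells, stood at 4160 to 19200 FPKM (fragments per kilobase of gene, scaled to library size), TP63 at 140 to 654 and SOX2 at 97.2 to 310. KRT14 reached 1210 FPKM in KYSE450 and at most 38.3 in KYSE70. Other squamous markers also differed by line: KRT17 stood at 190 to 264 FPKM in KYSE450 but at 0.341 to 0.873 in KYSE70. CDH1 stood at 104 to 164 FPKM in KYSE450 and at 11.9 to 48.9 in KYSE70. The fibroblast marker DCN, the endothelial marker CDH5 and the leukocyte markers PTPRC, CD3E and CD68 stayed at or under 0.138 FPKM. Other markers of the fibroblast and endothelial lists were present: COL1A1 stood at 20.6 to 37 FPKM, COL3A1 at 0.617 to 21.9, LUM at 0 to 1.09 and VWF at 0.717 to 4.24. Between 26401805 and 37937856 whole reads were recovered per library, so that a single read on 1 kb of gene adds 0.02636 to 0.03788 FPKM. The knockdown library of KYSE70 stood apart, with 8.626% of its FPKM in mitochondrial genes against 3.841% to 5.754% elsewhere, and 6.555% in ribosomal protein genes against 8.819% to 14.41%. Its pair had the widest spread of differences over all genes, an SD of 0.515 on the log2(FPKM + 1) scale against 0.194 to 0.306 in the other 3 pairs, and its differences followed GC content with a Spearman correlation of 0.483 across 13914 genes, against -0.0422 to 0.0709 elsewhere. Genes are not independent, so no p is given for that. A trace of the other line also differed between the sides: genes at 50 FPKM or more in 1 line and under 1% of that in the other had a median of 0.223% to 0.319% of the other line's level in the lower-side libraries and 0.0629% to 0.164% in the higher-side libraries. That rule was met by 20 genes for the KYSE70 libraries and by 11 for the KYSE450 libraries. Results on genes that 1 line expresses far above the other are therefore given with that trace subtracted where it matters.

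Of 14311 genes with a mean of at least 1 FPKM, limma with 1 term per pair called 0 between the higher and the lower side (0% at an adjusted p of at most 0.05; smallest adjusted p 0.922). At an unadjusted p under 0.05 there were 422 genes, 2.95% of those tested. The exact permutation test of a single gene over 4 pairs cannot go below a p of 0.125. The standard error of the fitted difference was 0.127 log2 units for the median gene and the fit left 3 residual degrees of freedom. Voom on the recovered reads also called 0 genes, with 448 at an unadjusted p under 0.05.

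The number of genes with the same sign in every pair was 1625, which is 11.4% of those tested and fewer than the 1766 that the pairs' own shares of higher and lower genes multiply to. Of them 700 were higher in all 4 pairs (4.89%, product 777) and 925 were lower in all 4 (6.46%, product 989). The count over the product was 0.92. With no filter on low values it was 1.43 (2656 of 35668 genes against a product of 1852). Each library then had only 24630 to 27135 of these genes above 0. A pair with both libraries at 0 gives no sign, which lowers the product, so this ratio cannot be set against that with the filter. The pattern in which the overexpression or knockdown library lay on the same side of its own control in all 4 pairs held 2217 genes (15.5%) against a product of 1757, a ratio of 1.26, with 1050 genes above control and 1167 below. With no filter, where the same limit holds, the ratio of this pattern was 1.81 (3380 genes against a product of 1863), again above that of the intended level. With the filter kept, the manipulation pattern held more genes than any other. The other counts of the 8 sign patterns of these pairs ran from 1603 to 1939 against products of 1755 to 1782. Of the 3842 genes with 1 sign within each arm, 42.3% followed the intended level and 57.7% followed the manipulation. The genes following the level were 22.4% of the 7244 with the same sign in both plasmid pairs and 21.4% of the 7585 with the same sign in both lentiviral pairs. Across the arms within 1 line, the same sign was seen in 6839 genes in KYSE70 (product 7091) and 6835 in KYSE450 (product 7162).

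**Figure D1:**
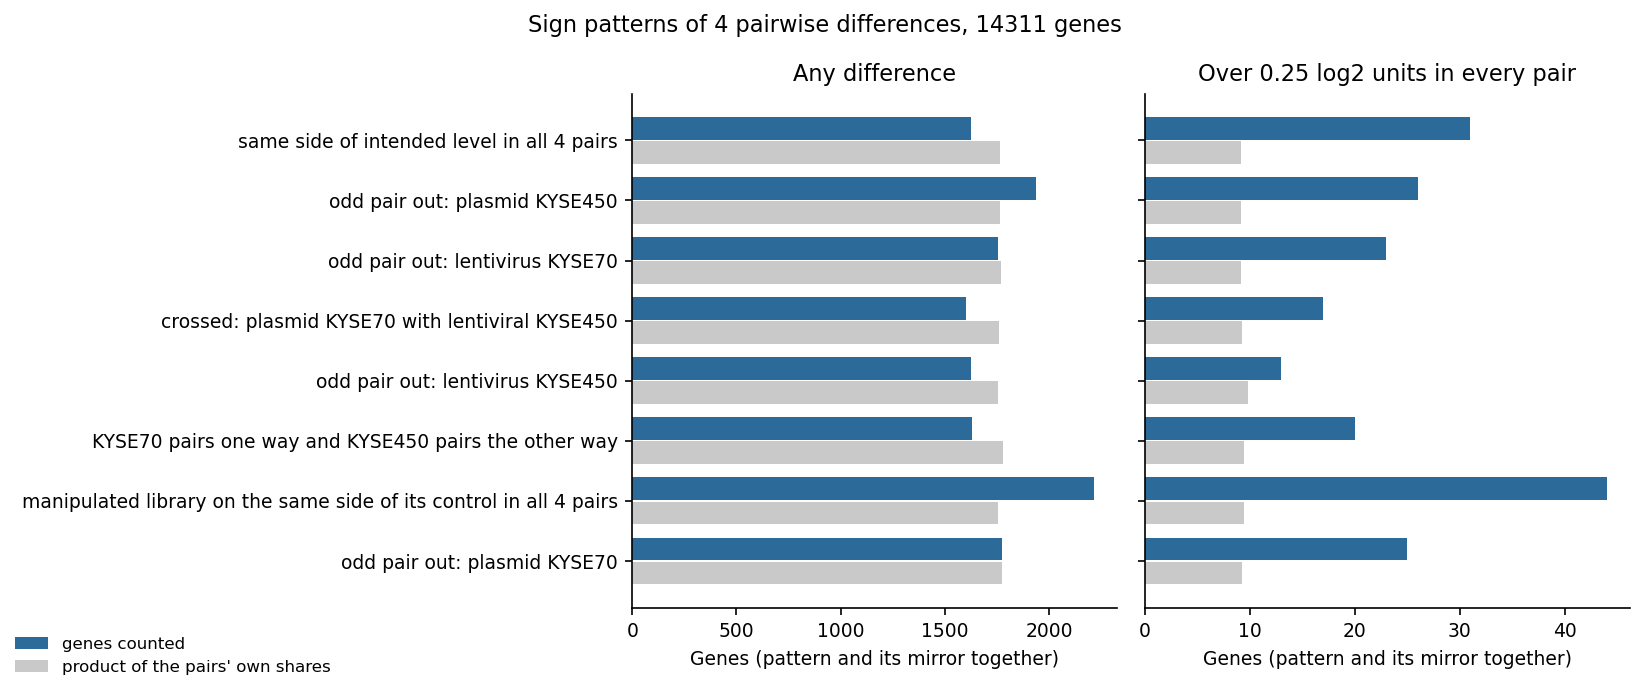
Number of genes in each of the 8 sign patterns of the 4 higher-minus-lower differences, with a pattern and its mirror counted together (blue), beside the product of the pairs' own shares (grey); left, any difference, right, more than 0.25 log2 units in every pair. The pattern of the intended level held 1625 genes at any size and 31 over 0.25, and the pattern of the manipulation held 2217 and 44.

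Among larger differences the count depended on the size asked for. By more than 0.1 in each pair, 274 genes followed the intended level against a product of 276. By more than 0.25 there were 31 (0.217%), 19 higher and 12 lower, against 9.21, a ratio of 3.37; the other 7 patterns held 13 to 44 genes against products of 9.17 to 9.81. By more than 0.5 there was 1 gene, AC092384.1. A product multiplies shares as if the size of a gene's difference in 1 pair said nothing of its size in another, and all 8 patterns exceeded it at 0.25. The 31 genes included 16 protein-coding genes, 5 pseudogenes, 4 other noncoding genes and 6 whose identifiers are not in GENCODE release 29. With the trace of the other line subtracted, 30 of the 31 were kept, the exception being LYRM5, which lay nearest to the limit with its smallest difference at -0.25. Just outside it were DDX47 at -0.25, PLCH1 at -0.24 and HBEGF at 0.24. These genes were chosen by their signs, so their values are given as a description and none of them passed the test.

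**Figure D2:**
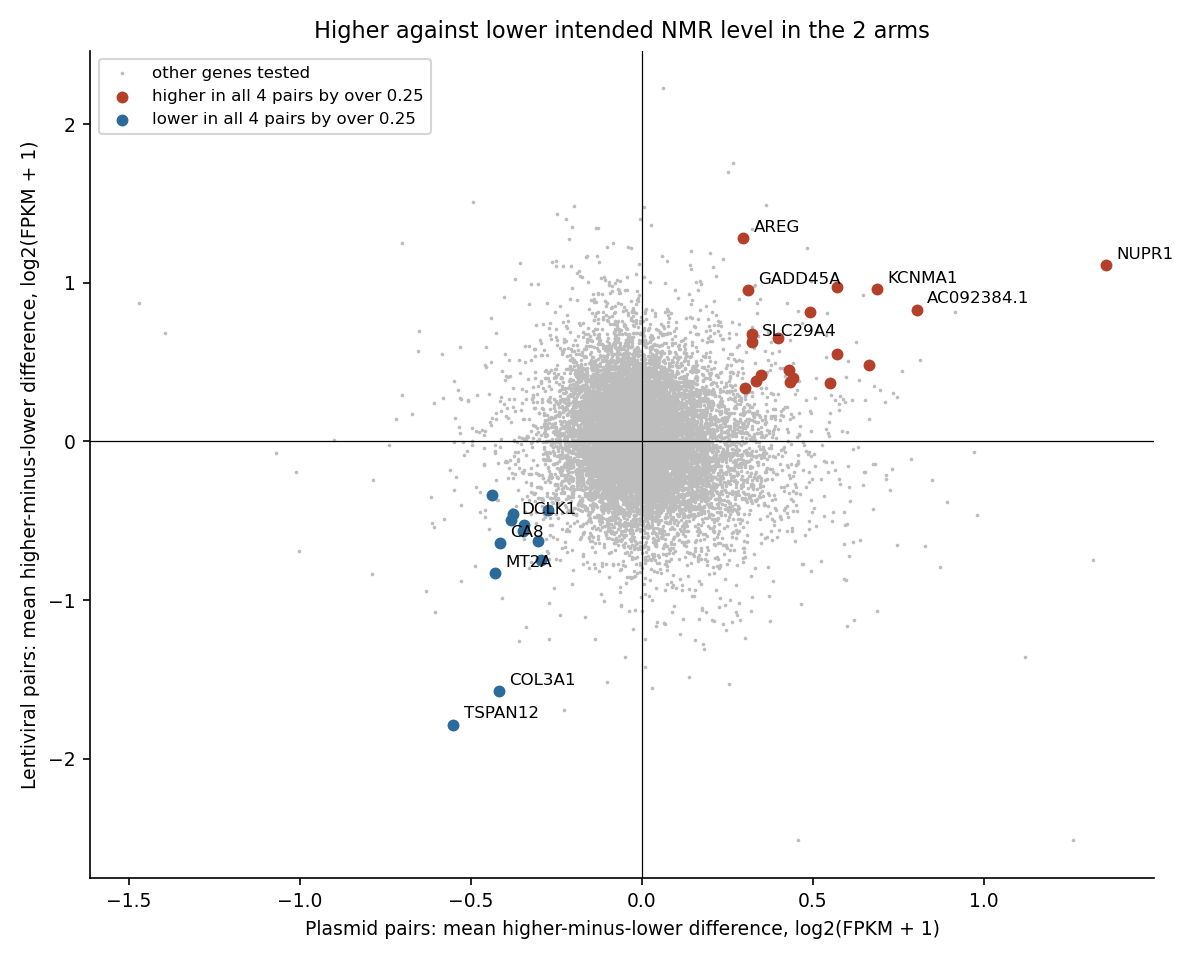
Each point is 1 of 14311 genes, placed by its mean higher-minus-lower difference in the 2 plasmid pairs (x) and in the 2 lentiviral pairs (y), both on the log2(FPKM + 1) scale. The 19 genes higher in all 4 pairs by more than 0.25 (red) and the 12 lower (blue) lie at the rim of the cloud. No correlation between the arms was computed.

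The genes on the higher side included growth factor and stress genes. AREG stood at 4.11 FPKM with CON and 5.26 with NMR in KYSE70, at 1.54 and 2.12 in KYSE450, and in the lentiviral arm at 4.39 with shRNA and 11.7 with shcon in KYSE70 and at 15.4 and 40.1 in KYSE450. The higher-side library exceeded its partner in each pair, but the sides overlapped, since the lentiviral libraries of KYSE450 both exceeded every plasmid library. The fitted difference was 0.79 on the log2 scale (SE 0.21), made of 0.29 and 0.30 in the plasmid pairs and 1.23 and 1.33 in the lentiviral pairs. HBEGF, which encodes the heparin-binding ligand of the same receptor, had 0.835 and 1.17 FPKM (CON, NMR) in KYSE70, 0.889 and 1.65 in KYSE450, 1.57 and 4.58 (shRNA, shcon) in KYSE70 and 5.69 and 23.4 in KYSE450. Its fitted difference was 0.93 (SE 0.25). The difference in the plasmid arm minus that in the lentiviral arm was -0.98 (SE 0.22) for AREG and -1.13 (SE 0.31) for HBEGF, and neither passed the test (limma, adjusted p 0.729 for each). Reads of AREG can be shared with a near-identical copy, so its level is uncertain. Of 11 members of the EGF receptor family and ligands, 7 were higher in both KYSE450 pairs and 2 lower, against 20.1% and 27.6% of all genes. In both KYSE70 pairs 2 were higher and 5 lower, against 24.7% and 23.1%. Only AREG and HBEGF were higher in all 4 pairs. EGFR itself stood at 158 and 202 FPKM (CON, NMR) in KYSE70, 878 and 852 in KYSE450, 268 and 142 (shRNA, shcon) in KYSE70 and 713 and 532 in KYSE450, higher with NMR in 1 line and lower with shcon in both.

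NUPR1, a small stress-induced chromatin protein, had the largest fitted difference of the 31 genes, 1.23 (SE 0.32). It stood at 27.9 and 37.4 FPKM (CON, NMR) in KYSE70 and at 13.4 and 70.4 in KYSE450, and at 14.9 and 55.3 (shRNA, shcon) in KYSE70 and 10.0 and 13.5 in KYSE450. It was not the same line that differed most in both arms: the large difference was in KYSE450 with the plasmid and in KYSE70 with the lentivirus. GADD45A, a growth arrest gene induced by p53 and by stress, stood at 102 and 128 FPKM in the plasmid pair of KYSE70, 28.2 and 34.7 in that of KYSE450, 154 and 336 in the lentiviral pair of KYSE70 and 50.8 and 88.4 in that of KYSE450. Its fitted difference was 0.63 (SE 0.15). KCNMA1, a calcium-activated potassium channel, differed by 0.34, 1.03, 1.53 and 0.39 in the pairs taken in the same order, and SLC29A4, a monoamine transporter, by 0.33, 0.31, 0.54 and 0.71. PTK2B, a focal adhesion family kinase, differed by 0.27 to 0.61, and DYNC1I1, a dynein intermediate chain, by 0.29 to 0.37, the most even of the protein-coding genes over 0.25. KIAA1199, which takes part in hyaluronan breakdown, differed by 0.87, 0.27, 1.42 and 0.52.

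**Figure D3:**
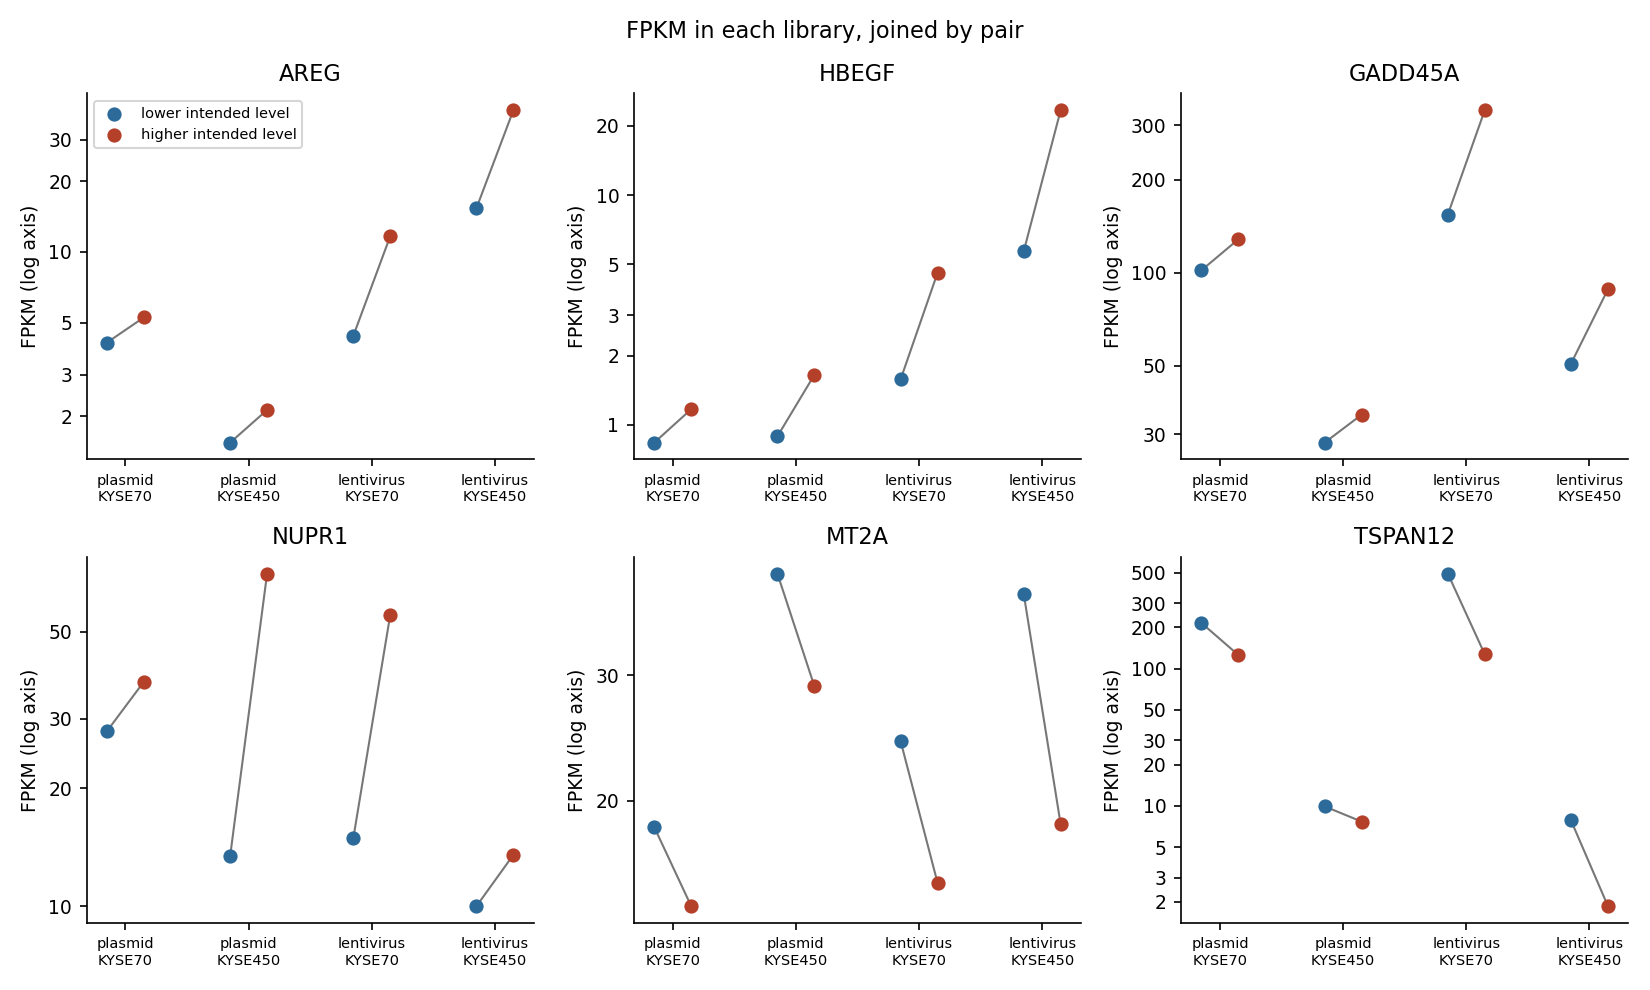
FPKM of 6 genes in each of the 8 libraries on log axes, with the lower-side library (blue) and the higher-side library (red) of each pair joined. AREG, HBEGF, GADD45A and NUPR1 were higher on the higher side in all 4 pairs, MT2A and TSPAN12 lower, while the levels of the 4 pairs lie apart from each other.

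Genes of the outer squamous layers and of cell surface signaling completed the higher side. TGM1, the transglutaminase that cross-links the cornified envelope, stood at 1.78 and 2.62 FPKM (CON, NMR) in KYSE70, 1.51 and 3.35 in KYSE450, 1.71 and 2.36 (shRNA, shcon) in KYSE70 and 0.589 and 0.85 in KYSE450. CSTA, which encodes cystatin A, a protease inhibitor of the same envelope, had differences of 0.22, 0.86, 0.84 and 0.23, in the order plasmid KYSE70, plasmid KYSE450, lentiviral KYSE70 and lentiviral KYSE450, which is used from here on. SPRR1A, an envelope precursor, differed by 0.57, 0.53, 0.20 and 0.38 at levels of 0.0824 to 3.78 FPKM. TGM1, SPRR1A and ECM1 made 3 of 9 measured squamous differentiation genes higher in all 4 pairs and 0 lower, against 4.89% and 6.46% of all genes, and the list median was 0.42. With the trend on GC content and length removed, 2 members were higher in all 4 pairs and the list median was 0.35. The median in the lentiviral pair of KYSE70 was then 0.088 in place of 0.325. The list did not go one way, since the keratin genes KRT13 (0.35, 0.22, -1.43 and -0.83) and KRT4 (0.15, -0.15, -1.06 and -1.08) were lower on the higher side in both lentiviral pairs. TNFRSF21, a death receptor, differed by 0.24 to 1.01, PLD3, a lysosomal exonuclease, by 0.24 to 0.38, CAPN8, a calpain protease, by 0.23 to 1.12, and WDR17 by 0.21 to 0.50.

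Some of the most even differences on the higher side belonged to weakly measured genes. AC092384.1, whose identifier is not in GENCODE release 29, was listed at 0 in both lower-side libraries of KYSE70 and at 0.694 and 0.787 FPKM in the higher-side ones. In KYSE450 it stood at 1.54 and 3.56 FPKM with CON and NMR and at 1.43 and 3.29 with shRNA and shcon. The 2 sides did not overlap within either line, and the fitted difference was 0.82 (SE 0.11) with the smallest p of all genes, 8.05e-05 in limma, which came to an adjusted p of 0.922. RP11-574K11.27, a processed pseudogene, differed by 0.41 to 0.73 at 0.478 to 2.25 FPKM, and AC007318.5, also a processed pseudogene, by 0.37 to 0.93 at 0.247 to 1.74 FPKM. Reads of pseudogenes can be shared with their parent genes, so these values are uncertain. Pseudogenes made up 3.84% of the genes tested, and 14.5% of them had the same sign in all 4 pairs, against 11.1% of protein-coding genes. A minimum of 50 recovered reads in every library left 12 of the genes that had the same sign by more than 0.25, against a product of 3.63.

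On the lower side, MT2A stood at 18.4 FPKM with CON and 14.2 with NMR in KYSE70 and at 41.66 and 28.96 in KYSE450. In the lentiviral arm it stood at 24.2 with shRNA and 15.3 with shcon in KYSE70 and at 39.0 and 18.5 in KYSE450. The higher-side library was the lower of each pair, with differences of -0.35, -0.51, -0.63 and -1.03 on the log2 scale, and within each line the sides did not overlap. The fitted difference was -0.63 (SE 0.13). The gene lies on chromosome 16 from 56608199 to 56609497 in GRCh38 as GENCODE release 29 gives it, with the promoter printed above at its RefSeq start. Of the other 3 measured genes of the metallothionein and zinc list, MT1F stood at 0 to 0.055 FPKM in KYSE70 and had differences of -0.68 and -0.63 in KYSE450, SLC30A1, a zinc exporter, had 0.07, -0.14, -0.67 and -0.21, and MTF1, the zinc-sensing factor, had 0.10, -0.08, -0.06 and 0.26. MT2A was thus the single member of 4 with the same sign in every pair. Metallothionein genes resemble each other, so reads can be split between them.

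TSPAN12, a tetraspanin of the Norrin and Frizzled receptor complex, had the largest fitted difference of the 12 genes on the lower side, -1.17 (SE 0.25). It stood at 214 and 125 FPKM (CON, NMR) in KYSE70, 9.91 and 7.68 in KYSE450, 491 and 127 (shRNA, shcon) in KYSE70 and 7.84 and 1.86 in KYSE450. The differences in the lentiviral pairs, -1.94 and -1.63, were wider than those in the plasmid pairs, -0.77 and -0.33, and the plasmid minus the lentiviral mean was 1.24 (SE 0.24), which did not pass the test (limma, adjusted p 0.729). TSPAN7, a related tetraspanin, had -0.27, -0.33, -0.89 and -0.36. Both tetraspanins, CA8 and NECAB2 stood far higher in KYSE70 than in KYSE450, and with the trace of the other line subtracted their fitted differences were -1.14 for TSPAN12, -0.43 for TSPAN7, -0.51 for CA8 and -0.44 for NECAB2. CA8, a carbonic anhydrase relative without enzyme activity, stood at -0.53 (SE 0.15) before subtraction, and NECAB2, a calcium-binding protein of neurons, at -0.46 (SE 0.11).

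DCLK1, a microtubule-associated kinase, was among the most even of the genes on the lower side, at -0.39, -0.38, -0.55 and -0.44. Its levels were 2.63 and 1.78 FPKM (CON, NMR) in KYSE70, 1.81 and 1.17 in KYSE450, 4.25 and 2.58 (shRNA, shcon) in KYSE70 and 2.06 and 1.25 in KYSE450. COL3A1, a fibrillar collagen, had -0.54, -0.29, -2.25 and -0.89, from 21.9 FPKM in the shRNA library of KYSE70 to 0.617 in the shcon library of KYSE450. COL3A1 is also a fibroblast marker, and the summed level of the 10 fibroblast genes measured ran from 32.4 to 48.3 FPKM in the higher-side libraries and from 34.4 to 63.8 in the lower-side ones, with DCN at 0 to 0.0336; the part of other cells in the COL3A1 difference was not tested. The remaining protein-coding genes named for the lower side were SEMA3E, a secreted guidance semaphorin (-0.22 to -0.51), CNN3, an actin-binding calponin (-0.21 to -0.38), SYNM, an intermediate filament protein (-0.21 to -0.41), TOX, an HMG-box factor (-0.19 to -1.56), PLCH1, a phospholipase C (-0.24 to -0.41), GCSH of the glycine cleavage system (-0.23 to -0.39), LYRM5 (-0.25 to -0.45) and DDX47, an RNA helicase (-0.25 to -0.89). Among genes of other types, RP11-465B22.3 had -0.34 to -0.53, EGFEM1P -0.28 to -0.48 and the antisense gene UBAC2-AS1 -0.27 to -0.61; the labels do not state whether strand was used in counting, so UBAC2-AS1 cannot be told apart from its sense partner.

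Of the 4 genes that earlier work ties to NMR, none of the 3 measured above the filter had the same sign in all 4 pairs. MMP3 had 16 reads in all 8 libraries, 0 to 0.237 FPKM, and was below the filter. MMP10, a stromelysin, stood at 31.4 and 79.7 FPKM (CON, NMR) and 57.0 and 16.0 (shRNA, shcon) in KYSE450 and at 0.42 to 0.597 in KYSE70, so the NMR and the shRNA library were both above their controls in KYSE450. Its differences were -0.13, 1.31, 0.03 and -1.77, and the fitted value was -0.14 (SE 0.41), or 0.40 without the lentiviral pair of KYSE450. NSUN2, an RNA cytosine methyltransferase, stood at 105 and 106 FPKM (CON, NMR) in KYSE70, 146 and 118 in KYSE450, 71.5 and 106 (shRNA, shcon) in KYSE70 and 140 and 149 in KYSE450, a fitted difference of 0.09 (SE 0.15), which was -0.07 without the lentiviral pair of KYSE70. BPTF, the large subunit of the NURF remodeling complex, had 26.7 to 29.4 FPKM in KYSE70 and 44.7 to 57.5 in KYSE450, a fitted difference of -0.06 (SE 0.09). MMP14, a membrane-bound collagenase, was the member of the metalloproteinase list with the same sign in every pair, at 0.14, 0.56, 0.27 and 0.00, the last of them 26.6 against 26.6 FPKM. RBBP4, a histone-binding subunit shared by NURF and other complexes, was lower in all 4 pairs (-0.02 to -0.35).

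The gene lists showed which pathways had members on 1 side in every pair. Of 22 ERK feedback and output genes, 5 were higher in all 4 pairs (DUSP4, EPHA2, PLAUR, SPHK1 and SPRED1) and 0 lower, against 4.89% and 6.46% of all genes, with 19 of 22 fitted above 0 and a median of 0.21 against 0.001 over all genes. Other members followed the manipulation in all 4 pairs: DUSP7, EGR1 and EPHA4 were above control and DUSP6, ETV4, ETV5 and FOSL1 below. These were 3 and 4 of 22, against 7.34% and 8.15% of all genes. SPHK1, the sphingosine kinase, differed by 0.25, 0.45, 0.68 and 0.17 and EPHA2, a receptor tyrosine kinase, by 0.20, 0.12, 0.16 and 0.66. DUSP6, the ERK phosphatase that reads out pathway activity, had -0.04 and -0.13 in the plasmid pairs and 2.25 and 0.25 in the lentiviral pairs, and EGR1, an immediate early factor, had 0.53, 0.03, -1.51 and -0.67. Of 19 NF-kB cytokines and targets, 3 were higher in all 4 pairs (IL8, RELB and TNFAIP3) and 0 lower, against the same 4.89% and 6.46%, with a median of 0.30. The list's medians by pair were 0.10, -0.01, 0.68 and 0.54, so it stood above 0 mainly in the lentiviral arm. IL8, a neutrophil-attracting chemokine, stood at 91.0 FPKM with shcon and 29.03 with shRNA in KYSE450 and at 0.184 to 1.51 FPKM in the other 6 libraries. TNFAIP3, an inhibitor of NF-kB, differed by 0.42, 0.34, 1.09 and 0.16. With the trend on GC content and length removed, the median of the NF-kB list was 0.18, that in the lentiviral pair of KYSE70 was 0.35 in place of 0.68, and 2 members were higher in all 4 pairs.

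Of 23 p53 targets, 4 were higher in all 4 pairs (BBC3, CDKN1A, GADD45A and XPC) and 0 lower, against 4.89% and 6.46% of all genes, with a list median of 0.075. By the manipulation, 4 were above control in all 4 pairs (BTG2, PERP, SESN1 and ZMAT3) and 3 below (AEN, BAX and FAS). The shares of all genes were 7.34% and 8.15%. CDKN1A, which encodes the CDK inhibitor p21, stood at 56.1 and 59.4 FPKM (CON, NMR) in KYSE70, 11.1 and 34.3 in KYSE450, 98.7 and 116 (shRNA, shcon) in KYSE70 and 14.6 and 26.1 in KYSE450. BBC3, a pro-apoptotic BH3 gene, differed by 0.10, 0.15, 0.77 and 0.79, while MDM2, the p53 ubiquitin ligase, had 0.22, -0.11, -0.89 and -0.77. HRK, another BH3 gene, differed by 0.12, 0.26, 0.41 and 0.98 and made with BBC3 the 2 of 14 BCL2 family members that were higher in all 4 pairs, against 4.89% of all genes. In the same family 0 were above control with the manipulation in all 4 pairs and 3 below (BAX, BID and BIK). The mitotic genes with the same sign in every pair were all lower: of 26 measured, 0 were higher and 8 lower in all 4 pairs (BIRC5, CCNA2, CCNB1, CDK1, CENPA, KIF11, MAD2L1 and MKI67), against 6.46% of all genes, with a median of -0.15 and 3 of 26 fitted above 0. With the trend on GC content and length removed the median was -0.10 and 6 members were lower in all 4 pairs.

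CDK1, the mitotic kinase, stood at 114 and 107 FPKM (CON, NMR) in KYSE70, 67.4 and 61.5 in KYSE450, 138 and 92.5 (shRNA, shcon) in KYSE70 and 70.2 and 57.6 in KYSE450. Its differences were -0.09, -0.13, -0.57 and -0.28, and the higher-side libraries lay below both lower-side libraries in each line. CCNA2, cyclin A2, had -0.08, -0.42, -0.25 and -0.20, MKI67, the Ki-67 gene, -0.02, -0.19, -0.23 and -0.44, and KIF11, a spindle kinesin, -0.09, -0.19, -0.19 and -0.24. Other mitotic genes did not follow: PLK1, a mitotic kinase, had 0.08, -0.37, 0.48 and 0.06, and UBE2C, a ubiquitin-conjugating enzyme of the anaphase complex, had -0.01, -0.16, 0.37 and 0.14. By the manipulation, 0 of the 26 mitotic genes were above control in all 4 pairs and 5 below (AURKB, CCNB2, CDC20, KIF2C and UBE2C). The shares of all genes were 7.34% and 8.15%. Of 28 DNA replication and G1/S genes, 0 were higher and 5 lower in all 4 pairs (E2F2, MCM6, ORC1, POLE2 and RFC3), and 20 of 28 were lower in both KYSE450 pairs, where 27.6% of all genes were. The list's medians were -0.04, -0.12, 0.17 and -0.09, so the lentiviral pair of KYSE70, which holds the library with the high mitochondrial share, stood on the other side. CDK14, a cyclin Y partner kinase, was lower in all 4 pairs (-0.45, -0.10, -1.40 and -1.10).

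**Figure D4:**
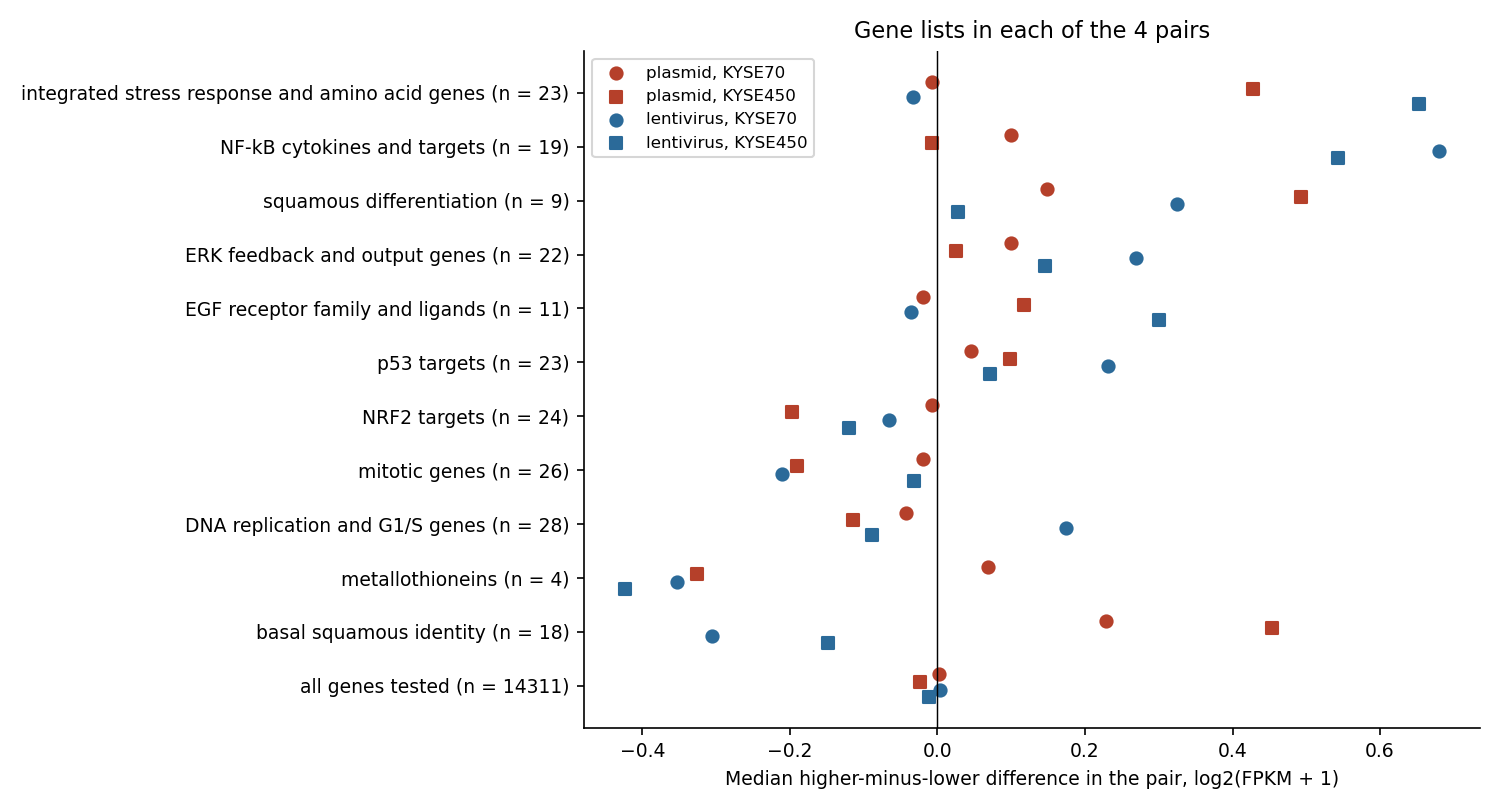
Median higher-minus-lower difference of 11 gene lists and of all genes tested in each of the 4 pairs, on the log2(FPKM + 1) scale; colour gives the arm and shape the cell line. The median of the stress response and amino acid genes was 0.43 and 0.65 in the KYSE450 pairs and -0.01 and -0.03 in the KYSE70 pairs. That of the mitotic genes was -0.19 and -0.21 in the plasmid pair of KYSE450 and the lentiviral pair of KYSE70. It lay near 0 in the plasmid pair of KYSE70 (-0.02) and the lentiviral pair of KYSE450 (-0.03).

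Among the list medians the lines lay farthest apart in the integrated stress response and amino acid genes, most of them targets of ATF4. Of 23 measured members, 19 were higher in both KYSE450 pairs and 0 lower, against 20.1% and 27.6% of all genes, and the list medians were 0.43 and 0.65 in KYSE450 and -0.01 and -0.03 in KYSE70. In both KYSE70 pairs 4 members were higher and 8 lower, against 24.7% and 23.1% of all genes. In all 4 pairs 4 members were higher (ATF4, PCK2, PHGDH and WARS) and 0 lower, against 4.89% and 6.46%. CHAC1 stood at 2.24 and 10.5 FPKM (CON, NMR) and at 13.8 and 47.6 (shRNA, shcon) in KYSE450, and at 5.67 and 5.67 and at 35.4 and 33.4 in KYSE70. The higher-side library of KYSE450 thus held several times the level of its partner in both arms, while in KYSE70 the partners lay close together. The difference between the lines was 1.82 (SE 0.23), with the smallest p of all genes for that difference, 9.98e-05, but limma gave it an adjusted p of 0.965, and 0 of 14311 genes were called (0%; 296 at an unadjusted p under 0.05, which is 2.07%). Leaving out either plasmid library of KYSE70 left that line with its lentiviral pair alone, the pair with the widest spread. CHAC1 and TSC22D3 were called in that fit, but most of its calls lay the other way, lower in KYSE450 relative to KYSE70. No gene was called when any other library was left out, so the calls of that fit are not read as support.

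Other members shared the pattern in size. STC2, a secreted glycoprotein, stood at 14.9 and 33.6 FPKM (CON, NMR) and 87.4 and 254 (shRNA, shcon) in KYSE450 and at 0.0439 to 0.224 in KYSE70. ASNS, asparagine synthetase, differed by -0.06, 1.48, -0.19 and 0.70, TRIB3, a pseudokinase, by -0.05, 0.34, -0.16 and 1.89, and SESN2, a leucine sensor, by -0.02, 0.69, -0.38 and 1.66. DDIT3, the factor CHOP, was lower on the higher side in KYSE70 with the lentivirus (-1.0) and higher in KYSE450 (1.63). The factor itself, ATF4, had 246 and 254 FPKM (CON, NMR) in KYSE70, 150 and 192 in KYSE450, 188 and 287 (shRNA, shcon) in KYSE70 and 206 and 325 in KYSE450, differences of 0.05, 0.36, 0.61 and 0.65. PCK2, mitochondrial phosphoenolpyruvate carboxykinase, differed by 0.07, 1.28, 0.18 and 0.52 and WARS, the tryptophan tRNA ligase, by 0.09, 0.44, 0.32 and 0.55. The transporter gene SLC7A11, shared with the NRF2 list, had 0.06, -0.10, -0.35 and 0.38. With the trace of the other line subtracted the list medians were 0.43 and 0.66 in KYSE450, and with the GC and length trend removed 0.38 and 0.65.

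**Figure D5:**
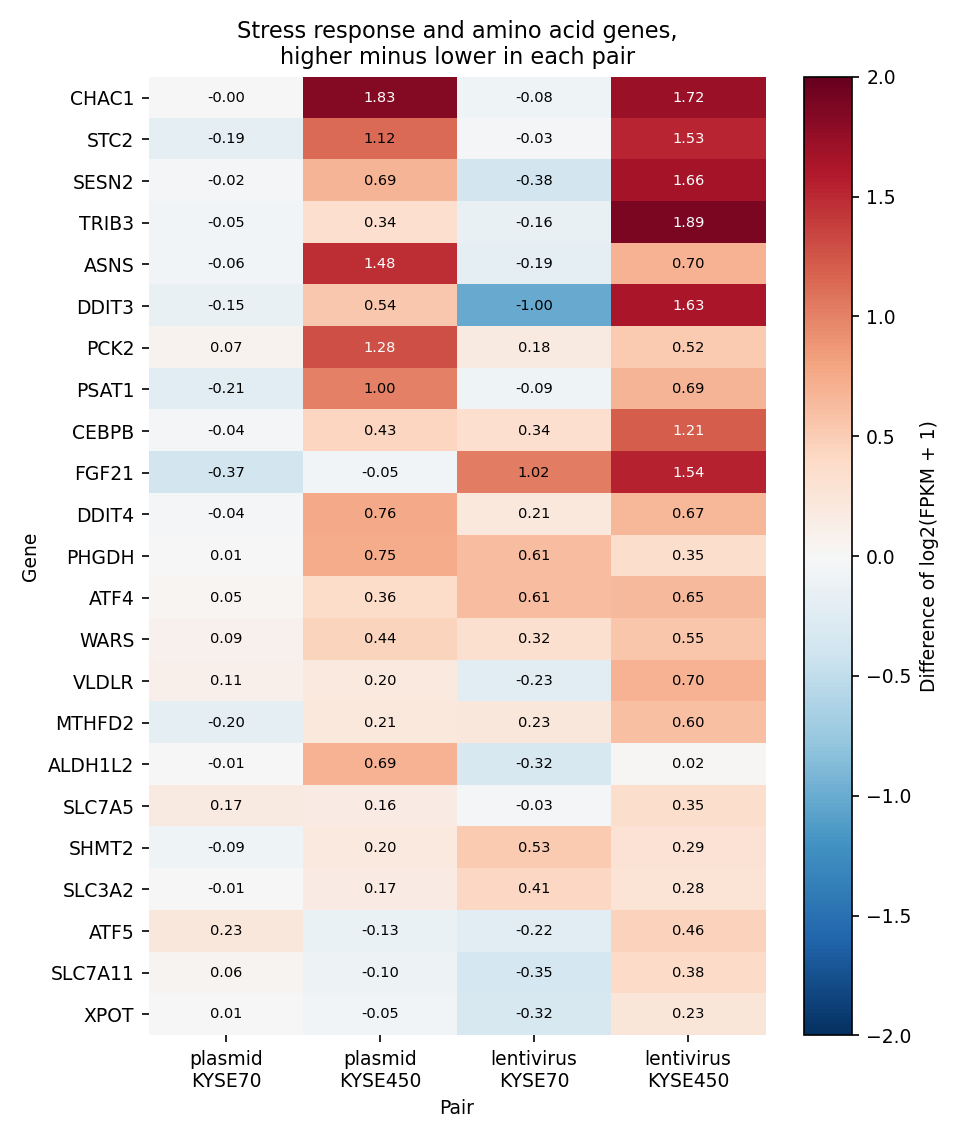
Higher-minus-lower difference of the 23 stress response and amino acid genes (rows, by mean difference in KYSE450) in the 4 pairs (columns), on the log2(FPKM + 1) scale, with the value in each cell. The KYSE450 columns are mostly red, with CHAC1 at 1.83 and 1.72, and the KYSE70 columns are mostly pale or blue, with ATF4 and PHGDH at 0.61 in the lentiviral pair among the exceptions.

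TSC22D3, a glucocorticoid-induced zipper protein, had -0.27 and -1.18 in KYSE70 and 1.17 and 1.82 in KYSE450, a difference between the lines of 2.22. NR2F1, an orphan nuclear receptor, had -1.33 and -1.91 in KYSE70 and 0.12 and -0.24 in KYSE450. On the other side, AKR1B10, an aldo-keto reductase at 1423 to 1744 FPKM in KYSE70, stood at 3.58 and 1.06 FPKM (CON, NMR) and 5.72 and 1.01 (shRNA, shcon) in KYSE450. CES1, a carboxylesterase at 864 to 1134 FPKM in KYSE70, was listed at 1.24, 0, 2.05 and 0 FPKM in the same KYSE450 libraries. Both KYSE450 levels lie under 1% of those in KYSE70, so both genes are among the 11 that set the trace in the KYSE450 libraries. With the trace subtracted, the difference between the lines went from -1.49 to -0.38 for AKR1B10 and from -1.20 to 0.18 for CES1. Since these genes helped to set the trace, that change is partly built in and is no independent check. AC006014.1 and SNORA71B, a small nucleolar RNA, also stood lower in KYSE450 relative to KYSE70, at 1.49, -0.10, 2.44 and -1.79 and at 0.36, -0.71, 1.09 and -1.03. The lowest library held 2 reads of AC006014.1 and 7 of SNORA71B, so their values are uncertain.

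Of 24 NRF2 targets measured, 12 were lower in both KYSE450 pairs and 1 higher, against 27.6% and 20.1% of all genes. In all 4 pairs 4 were lower (GCLM, OSGIN1, PGD and TXN) and 1 higher (AKR1C3, by 0.00 to 0.16), against 6.46% and 4.89%, with a list median of -0.13. GCLM, the modifier subunit of the first enzyme of glutathione synthesis, stood at 76.5 and 69.2 FPKM (CON, NMR) in KYSE70, 70.3 and 60.2 in KYSE450, 60.3 and 48.4 (shRNA, shcon) in KYSE70 and 62.1 and 44.8 in KYSE450. OSGIN1, a stress-induced growth inhibitor, had -0.04, -0.88, -0.22 and -0.65, and TXN, thioredoxin, had -0.31, -0.17, -0.18 and -0.23. The subunit genes of glutathione synthesis did not go together, since GCLC had 0.20, -0.53, -1.08 and 0.24. NQO1, a quinone reductase, stood at 270 and 226 FPKM (CON, NMR) and 114 and 85.0 (shRNA, shcon) in KYSE450 and differed by -0.07 and 0.00 in KYSE70. The AKR1C genes resemble each other closely, so their reads can be split.

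Between the arms, no gene passed the test of a different response in the plasmid and the lentiviral pairs (limma, 0 of 14311, 0%; smallest adjusted p 0.194), with 944 genes at an unadjusted p under 0.05 (6.6%). With 1 library left out the fit kept 1 residual degree of freedom and gave unlike counts: 3724 without the shcon and 3723 without the shRNA library of KYSE450, 342 and 314 without those of KYSE70, 6 without either plasmid library of KYSE70 and 2 without either of KYSE450. EDN2, an endothelin, stood at 2.63 and 3.31 FPKM (CON, NMR) in KYSE70, 10.9 and 17.8 in KYSE450, 34.05 and 4.27 (shRNA, shcon) in KYSE70 and 7.21 and 0.674 in KYSE450. It was above control with both manipulations in both lines, so that the higher-minus-lower differences were 0.25 and 0.66 with the plasmid and -2.73 and -2.29 with the lentivirus, and the difference between the arms was 2.97 (SE 0.27). IGFBP5, a secreted binding protein of insulin-like growth factors, had the same pattern: 4.63 and 8.87 FPKM in the plasmid pair of KYSE70, 52.8 and 175 in that of KYSE450, 65.2 and 5.92 (shRNA, shcon) in KYSE70 and 3.36 and 0.285 in KYSE450. Its difference between the arms was 3.77 (SE 0.51), with an adjusted p of 0.672 in limma and 0.0108 by voom on the recovered reads. GJA1, the connexin 43 gene, and DDX60, an antiviral helicase, also were above control with both manipulations. TNC, a matrix glycoprotein, CCND3, cyclin D3, FGF21, a stress hormone, and AC099344.1 were below control with both. FGF21 stood at only 0.0672 and 0.0311 FPKM (CON, NMR) in KYSE450. AC099344.1 was listed at 0 with NMR in both lines and with shRNA in KYSE70. Their signs thus rest partly on values near 0.

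The pattern of the manipulation over the 4 pairs was led above control by IGFBP5, NREP, TNFSF10, APCDD1 and FAM110C. TNFSF10, the death ligand TRAIL, stood at 1.93 and 2.95 FPKM (CON, NMR) in KYSE70, 5.92 and 11.1 in KYSE450, 3.14 and 9.31 (shcon, shRNA) in KYSE70 and 5.32 and 11.1 in KYSE450. Below control it was led by MSC, a bHLH repressor, TSACC, NUTF2, a nuclear transport factor, RND1 and PCDH19, a protocadherin. By more than 0.25 in every pair, 35 genes were above control and 9 below. Of 18 basal squamous identity genes, 6 were above control in all 4 pairs, as were 6 of 28 interferon-stimulated genes, against 7.34% of all genes, and 7 of 30 nuclear oxidative phosphorylation genes were below, against 8.15%. Shorter lists also had members above control: 4 of 8 genes of the insulin-like growth factor binding protein list (0 below), 4 of 13 mesenchymal genes (1 below) and 3 of 12 metalloproteinase and inhibitor genes (0 below). The basal squamous list held no gene with the same sign by intended level.

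The other lists had at most 2 members in either direction, which are read here against 4.89% of all genes higher and 6.46% lower in all 4 pairs. Among those higher were JAG1, a NOTCH ligand (0.12 to 0.33), and MFNG (0.01 to 0.13), 2 of 17 NOTCH pathway genes, and TGFB1 (0.06 to 0.59) and SKIL, a SMAD repressor (0.15 to 0.23), 2 of 22 TGF-beta and BMP genes. The glucose transporter gene SLC2A1 (0.04 to 0.30) and VEGFA (0.02 to 1.37) were 2 of 21 hypoxia and glycolysis genes, and PLAU (0.03 to 0.65) and its receptor gene PLAUR (0.01 to 0.79) were 2 of 5 genes of the plasminogen activator system. In KYSE70, PLAU was listed at 0 in the lower-side libraries and at 0.0233 and 0.0265 FPKM in the higher-side ones. Its signs there thus rest on values near 0. PLAUR stood at 5.57 and 5.60 FPKM (shRNA, shcon) in KYSE450. With the GC and length trend removed, 1 of the 5 was higher in all 4 pairs. JUP (0.02 to 0.53) and PKP3 (0.04 to 0.35) were 2 of 22 desmosome and junction genes, and ANO1 (0.11 to 0.46) and FADD (0.04 to 0.95) were 2 of 13 amplicon genes. Single members were ITGB5 (0.08 to 0.28) of 17 integrins and laminins, PLXNB2 (0.01 to 0.23) of 11 semaphorin and plexin genes, CEBPD (0.16 to 0.53) of 9 glucocorticoid-responsive genes, CALR (0.01 to 0.51) of 16 unfolded protein response genes and PVT1 (0.03 to 0.76) of 15 long noncoding RNAs; HLA-E was at 0.04 to 0.29. Lower in all 4 pairs were the chaperone genes HSPA8 (-0.06 to -0.77) and HSPH1 (-0.13 to -0.51), 2 of 14, and AMOTL2 (-0.14 to -0.96) and TEAD1 (-0.05 to -0.77), 2 of 15 YAP and TEAD genes. SQLE (-0.05 to -0.30) and INSIG1 (-0.07 to -1.32) were 2 of 22 cholesterol and fatty acid genes, DDX58 (-0.01 to -0.64) and OAS3 (-0.04 to -0.43) 2 of 28 interferon-stimulated genes, and EPCAM (-0.03 to -0.24) and PKP2 (-0.07 to -0.55) 2 of 22 junction genes. Single members on the lower side were TAP2 (-0.01 to -0.26) of 14 antigen presentation genes, TGFBR1 (-0.05 to -0.59) of 22 TGF-beta and BMP genes, UQCRFS1 (-0.03 to -0.34) of 30 nuclear oxidative phosphorylation genes, MT-ND4L (-0.01 to -1.58) of 13 mitochondrially encoded genes and RPL10 (-0.03 to -0.43) of 36 ribosomal protein genes. With 1 or 2 genes a list, these counts are given as values only. NEFL, a neurofilament gene kept among markers of the packaging cells, was lower in all 4 pairs at 113 to 255 FPKM in KYSE70 and 0.193 to 0.703 in KYSE450, and its fitted difference went from -0.26 to -0.07 with the trace of the other line subtracted. NEFL is itself among the genes that set the trace in the KYSE450 libraries, so that change is partly built in.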

How the data were processed

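RNA sequencing of 8 libraries from the KYSE70 and KYSE450 cell lines gave 1 table of FPKM values per gene, deposited by the authors, with the unit taken from the values and the gene identifiers. HTSeq 0.6.1, TopHat2 2.0.9 and the build hg19 are listed in the submitters' processing notes, with no order, and the settings for strand and for reads with several matches are not stated there. Whole reads were recovered from the spacing of the deposited FPKM values and served for depth and as an alternative. Each higher-minus-lower difference was taken on log2(FPKM + 1), which understates the change of low genes. Genes whose FPKM averaged 1 or more were fitted with limma 3.58.1 in R 4.3.3, with a term for each of the 4 pairs and Benjamini-Hochberg adjustment over 14311 genes, and the same table gave the tests of level by delivery and by cell line. Counts of signs were set beside the product of each pair's own shares of higher and lower genes, which is no test. The pairing comes from the labels, as 1 library of each side shares a line and a delivery. The genes named were those with the largest smallest-of-4 difference (15 protein-coding and 3 of other types in each direction), up to 2 members of each of 44 lists, MMP3, MMP10, NSUN2 and BPTF, the leading genes of the other sign pattern, and 4 in each direction by p for the 2 interactions; other genes were named from the lists. Members and lists were chosen with earlier results of these data known. Genes outside these rules, such as KRT4, DUSP6 and MDM2, were named after their values were seen. 1 member of the lists is not reported here. Alternatives were other pseudocounts, filters and scalings, a fit without the pairs, voom on the recovered reads, and each library left out. The fitting code was tested on simulated data. The p-values measure the spread between 4 pairs, which may be technical.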

Additional observations from a re-analysis of the deposited data

How the results depend on the processing

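No setting called a gene between the higher and the lower intended level, with the smallest adjusted p from 0.227 (KYSE450 pairs alone) to 1. Without the pairing (no replicate block, level alone) the count of calls was also 0, with a smallest adjusted p of 1. The number of genes with the same sign in every pair was 2656 with no filter (product 1852), 6839 with the KYSE70 pairs alone, 6835 with the KYSE450 pairs alone, and 3252 to 3569 with 1 library, and so its pair, left out, where fewer pairs must share a sign. Over 0.25 in every pair it was 78 with a pseudocount of 0.1, 15 at a mean of at least 5 FPKM, 16 among protein-coding genes, 12 with at least 50 recovered reads in each library, 575 and 551 with the KYSE70 or the KYSE450 pairs alone, and 83 to 192 with 1 library left out. The pattern of the manipulation held 3380 genes with no filter and 3850 to 4166 with 1 library left out. The test of level by delivery called 1 gene, IGFBP5, with a pseudocount of 0.1 and 1 by voom, and 2 to 3724 with 1 library left out, where the lone pair is assumed to vary like the others. The test of level by cell line called 1 gene, CES1, with a pseudocount of 0.1 and 0 to 116 with 1 library left out. Of 2447 values of named genes under an alternative, 2389 kept their direction and side of the threshold, 49 passed it and 9 changed sign. The first count was largely fixed in advance and is no measure of stability. Most of these genes were chosen for the same sign in all 4 pairs, so leaving out a library or a line could not change their direction. No setting called a gene by level, so the 49 are values of level by delivery or by cell line. MFNG was at -0.001 with the GC and length trend removed and CES1 by cell line at 0.185 with the trace of the other line subtracted. NSUN2 was at -0.11 in KYSE450 alone, at -0.06 with weights per arm and between -0.07 (lentiviral pair of KYSE70 left out) and 0.216 with 1 library left out. MMP10 was at 0.317 with weights per arm and between -0.624 and 0.404 (lentiviral pair of KYSE450 left out) with 1 library left out. The causes were not tested. The alternatives added after the data were seen were the protein-coding, read-minimum and trace settings, the settings beyond pseudocount for the count over 0.25, those beyond the mean of 5 FPKM for the manipulation pattern, and voom for the interactions. The planned count-model tests were not run, since the deposited unit is FPKM. Depth limits the values of genes listed at or near 0, and with 4 pairs a single gene cannot reach an exact p under 0.125.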
